A study of Mus musculus with 7 samples.

Results

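The cytosolic ribosomal protein genes were taken from the gene table as nuclear protein-coding entries whose symbol begins Rpl or Rps with a number, or is Rplp0, Rplp1, Rplp2 or Rpsa, without pseudogene names and without the Rps6k kinases. This gave 86 genes of 55487 entries in the table, or of 21961 nuclear protein-coding genes. Of the 86, 46 encode core proteins of the large subunit, 31 encode core proteins of the small subunit, and 9 are paralogs or genes that share only the name. The 9 are Rps27l, Rps27rt, Rpl22l1, Rpl36al, Rpl39l, Rpl3l, Rpl10l, Rpl7l1 and Rps19bp1. The last pair encode a protein related to Rpl7 and a nucleolar protein that binds Rps19. The genes lie on 19 chromosomes, with 14 on chromosome 7 and 4 on the X chromosome.

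The samples were primary tumours that 4T1-12b(luc) cells formed in the mammary fat pads of BALB/c mice. These cells are a luciferase-carrying derivative of the 4T1 mouse mammary carcinoma line. Genotype is labelled WT and time day 12 in every group. Tumours of about 150 mm3 received 6 injections of 50 µl, 1 every other day, of saline (3 libraries), of small extracellular vesicles from DMSO-treated 4T1 cells (Cont sEV, 1 library) or of vesicles from 4T1 cells treated with nocodazole, which blocks microtubules, at 100 ng/ml (TIS sEV, 3 libraries). Donor cells were treated for 72 h and released for 72 h before their medium was collected. The labels do not say that replicates came from separate mice, so p-values measure only the spread between these libraries, which may be technical. The table's vesicle columns carry abbreviations that were read as Cont sEV and TIS sEV from the protocol and from the number of columns.

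Each cytosolic ribosome is built from ribosomal RNA and a copy of nearly every ribosomal protein, in a small subunit that reads the mRNA and a large subunit that joins amino acids. Ribosomal protein mRNAs are short and among the most abundant in growing cells. They belong to the TOP mRNAs, named for a terminal oligopyrimidine tract: transcription starts at a C followed by a run of pyrimidines, and translation of such mRNAs is controlled by the mTORC1 kinase.

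The start sites of a few members show this tract. In each line below, 15 bases before and 10 from the start annotated by RefSeq (build GRCm38.p6) are written 5′ to 3′ on the gene's strand, with the longest run of pyrimidines in capitals. The first 5 members start at a C followed by at least 4 pyrimidines, and the last 4 do not. They are shown because the results below turn on them, and Rpl14, Rps21, Rpl4 and Rps3 were added after their values were seen.
Rplp2 (chr7:141447636-141447660, + strand): tgcgtcagcgTCTTCCTTTCgccgc
Rps27 (chr3:90213639-90213663, - strand): atttccgctttcgCTCCTTTCCggc
Rps6 (chr4:86857358-86857382, - strand): aagcggaagtcgggCCTCTTTTTCg
Rpl14 (chr9:120571502-120571526, + strand): gggcgggCCCTCTCTCTTCTCgctg
Rps21 (chr2:180257364-180257388, + strand): taccgaggacccgCCCTCCTgccca
Rpl4 (chr9:64173372-64173396, + strand): TTCCTTTTCCTgtgggagcagccgg
Rpl10 (chrX:74270801-74270825, + strand): gTTgttacagtggaagataggccgc
Rps3 (chr7:99483700-99483724, - strand): CTTgcaagggtcgccgcgctgcgcg
Rpl41 (chr10:128549159-128549183, - strand): cacacgggccggCTCggaagtgacg
Annotated starts are not measured here. RefSeq lists a further start for Rps21 without the tract, and in Rpl4 a run of pyrimidines lies just before the annotated base.

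The RefSeq promoter table held 66 of the 86 members. A C followed by 4 pyrimidines at the annotated start was found for 14 of the 66 (21.2%) and for 2.64% of 16447 other coding genes. A run of at least 8 pyrimidines within 20 bases of the start was found for 45.5% of members and 18.3% of the others. In the starts of annotated GENCODE transcripts, which cover all 86 members, the C with 4 pyrimidines was found for 26.7% of members and 5.06% of the other coding genes. Promoter windows of 250 bases before to 50 after the start were searched on both strands for 3 motifs. The ETS-type CCGGAAG was in 39.4% of member promoters and 13.2% of the others, the YY1-type ATGGCG in 31.8% and 12.6%, and the GC box GGGCGG in 62.1% and 51.0%. These shares describe letters in the reference and no binding was measured.

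The 150 bases before the start are shown for Rplp2, the core gene with the widest range over libraries, and Rpl14, the member with the highest TIS sEV difference from saline, with motif matches in capitals. Rplp2, which encodes a protein of the stalk that recruits elongation factors, has an ETS-type match on the reverse strand and a reverse GC box. Rpl14, a large subunit protein, has a reverse YY1-type match and a pair of forward GC boxes.
Rplp2 (chr7:141447501-141447650, + strand): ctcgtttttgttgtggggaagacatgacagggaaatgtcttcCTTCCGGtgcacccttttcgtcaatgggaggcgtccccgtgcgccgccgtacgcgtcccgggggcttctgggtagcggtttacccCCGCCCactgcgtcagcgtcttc
Rpl14 (chr9:120571367-120571516, + strand): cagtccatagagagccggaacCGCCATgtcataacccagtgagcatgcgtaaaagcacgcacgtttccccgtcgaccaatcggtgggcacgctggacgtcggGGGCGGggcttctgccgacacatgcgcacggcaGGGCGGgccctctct

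Ribosomal protein mRNA made up about the same part of coding mRNA in saline and TIS sEV tumours. All values below are rescaled TPM, that is, length-corrected abundance scaled so that nuclear protein-coding genes sum to 1000000 in each library. On this scale the 86 genes summed to 35.3%, 31.2% and 30.7% of coding TPM in saline replicates 1, 2 and 3. The sums were 30.5%, 33.8% and 33.5% in TIS sEV replicates 1, 2 and 3, and 37.7% in the Cont sEV library. The saline mean was 32.4% ± 2.52 and the TIS sEV mean 32.6% ± 1.80 (SD, n = 3), and the values of these groups overlapped. The Cont sEV library was the highest of the 7.

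Before rescaling, TIS sEV replicate 2 stood apart. The family took 9.67% of its deposited TPM against 19.8% to 27.8% in the other 6 libraries, while nuclear ribosomal RNA took 22.9% against 0.807% to 2.40%. Nuclear protein-coding genes took 28.6% of it, against 56.8% to 74.7%. Within its coding TPM the family lay inside the range of the others, at 33.8%. Its lower share of deposited TPM therefore came with the lower share of all coding genes. Library depth is unknown, since TPM keeps no counts, and no counting interval is given.

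**Figure D1:**
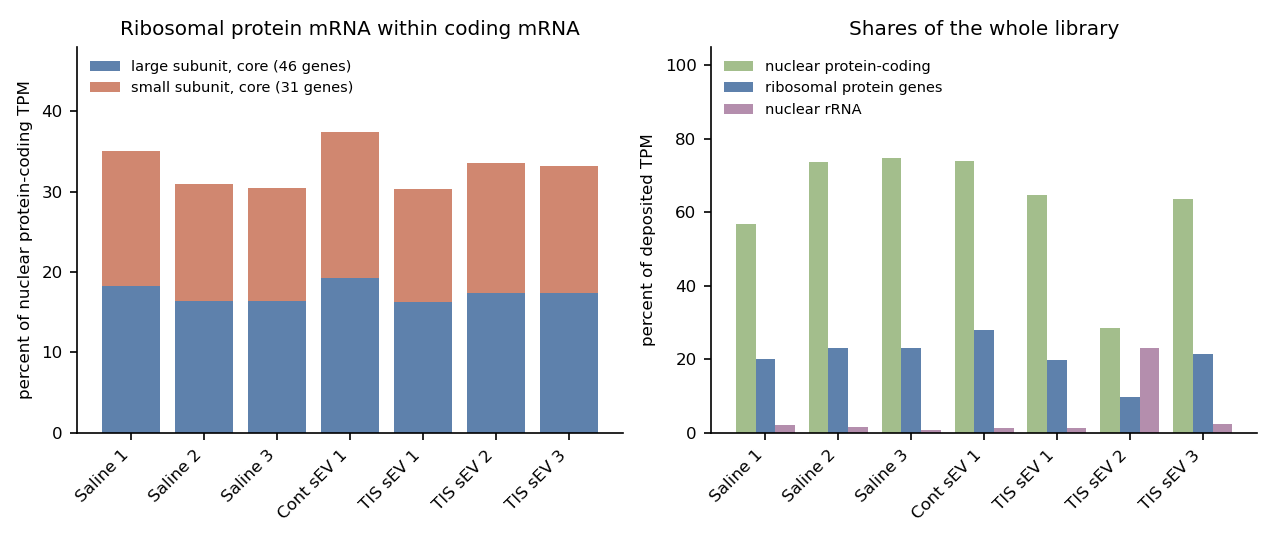
Left, summed core large (46 genes) and small (31 genes) subunit mRNA as percent of nuclear protein-coding TPM in each of the 7 libraries. Right, percent of deposited TPM in coding genes, ribosomal protein genes and nuclear ribosomal RNA; TIS sEV replicate 2 has 22.9% ribosomal RNA but an unremarkable ribosomal protein share within coding genes.

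The proportion of small to large subunit mRNA ran from 0.862 to 0.947 over the 7 libraries and was highest with Cont sEV. Core small subunit genes summed to 0.919, 0.890 and 0.867 times the core large subunit sum in the saline libraries. The ratio was 0.862, 0.928 and 0.918 in the TIS sEV libraries and 0.947 with Cont sEV. The groups overlapped, and the means were 0.892 ± 0.026 and 0.903 ± 0.0354 (SD, n = 3) for saline and TIS sEV.

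Levels differed far more between members than between libraries. Rpl41, which encodes the shortest ribosomal protein, was highest, with a mean of 13793 over the 7 libraries. Rplp1, a stalk protein (12730), Rps27, a zinc finger protein of the small subunit (12213), Rps12 (9225) and Rps15 (9072) followed. Rpl29 was the lowest core gene, at 181, which is 76.0 times below Rpl41. The median core gene was at 3646, and 64 of 77 core genes lay within 2-fold of it. Of the 100 most abundant nuclear coding genes, 70 were members.

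Rpl41 measured 13360, 14844 and 12712 in saline replicates 1 to 3, 16406 with Cont sEV and 11015, 13222 and 14995 in TIS sEV replicates 1 to 3. Rplp1 measured 14189, 9187 and 12038 with saline, 14243 with Cont sEV and 11154, 13247 and 15048 with TIS sEV. Rps27 measured 13358, 12008 and 10461 with saline, 14634 with Cont sEV and 9672, 13584 and 11771 with TIS sEV. For each of these 3 genes the saline and TIS sEV values overlapped and Cont sEV was above every saline library.

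The order of the core genes was much the same in every library. Spearman correlations of the 77 core levels between libraries were 0.888 to 0.964 over 21 pairs. They are across genes, which are not independent, and all libraries share 1 annotation. For the median core gene the highest library was 1.42 times the lowest, and the range over genes was 1.16 (Rps20) to 2.23 (Rplp2). For 74 of 77 core genes (96.1%) the highest library was under 2 times the lowest. Among 1092 other tested coding genes with a mean of at least 100, the median was 1.85 and 57.5% were under 2. These spreads were not tested against each other. They were taken only on the rescaled values, and the members are a large part of the total used for rescaling.

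Values that came from near-identical copies are uncertain. The table listed 300 entries with a ribosomal protein pseudogene name, of which 99 were at 0 in every library, and together they equalled 1.42% to 2.10% of the members' TPM. Copies with other names were not counted. The 11 pseudogene entries of Rps2, a protein at the mRNA entry site of the small subunit, held more TPM than Rps2 itself in all 7 libraries (622 to 1794 against 465 to 1288 deposited TPM).

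No ribosomal protein gene passed the test between TIS sEV and saline. The test was limma on log2(rescaled TPM + 1), with Benjamini-Hochberg adjustment over 11444 tested coding genes. A total of 84 members were tested, and Rpl3l and Rpl10l were below the filter of 1 in at least 3 libraries. The members' adjusted p was 0.317 to 0.987. No coding gene passed either (0 of 11444, 0.0%, lowest adjusted p = 0.0794). At an unadjusted p under 0.05 there were 2 members of 84 (2.38%), against 15.6% of all tested coding genes. Rpl14 was the 1 higher member (3.03% of all coding genes were higher) and Rps3 the 1 lower member (12.6% of all were lower). Single libraries moved these counts: without TIS sEV replicate 1 there were 9 members and 3884 of 11320 coding genes. Without saline replicate 2 there were 0 members and 584 of 11299 coding genes, and 0 and 1017 of 11347 without TIS sEV replicate 3. Leaving out TIS sEV replicate 2 gave 1 member and 1343 of 11344 coding genes.

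Rps3, which lies where mRNA enters the small subunit, had the lowest fitted difference. It measured 2245, 2389 and 1754 in the saline libraries, 1496 with Cont sEV and 1570, 1714 and 1225 in the TIS sEV libraries. All TIS sEV values lay below all saline values, with the nearest at 1714 and 1754. The log2 difference was -0.50 (SE 0.19, limma adjusted p = 0.317).

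Rpl14 had the highest. It measured 1935, 1500 and 1864 with saline, 2247 with Cont sEV and 2142, 2667 and 2617 with TIS sEV, so that no saline library reached a vesicle library. The log2 difference was 0.49 (SE 0.17, limma adjusted p = 0.317). Rpl4, a protein that lines the exit tunnel of the nascent chain, measured 2013, 1792 and 2149 with saline, 1230 with Cont sEV and 1831, 1447 and 1226 with TIS sEV. TIS sEV replicate 1 lay inside the saline range and the other vesicle libraries below it, with a TIS sEV difference of -0.42 (SE 0.19, adjusted p = 0.321).

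Further members stood at the ends of the list. Rps3a1, a small subunit protein, measured 5443, 5727 and 5015 with saline and 4487, 4618 and 3795 with TIS sEV (-0.33, adjusted p = 0.320). Rpl5 and Rpl11 form a particle with 5S ribosomal RNA that can bind the p53 regulator Mdm2. They differed by -0.24 (SE 0.15) and -0.29 (SE 0.16), with adjusted p of 0.392 and 0.354. Rpl11 measured 2943, 2908 and 2941 with saline and 2884, 2117 and 2232 with TIS sEV, so only replicate 1 came near the saline values. Above 0 were Rpl38 (0.32, SE 0.17), Rps29 (0.34, SE 0.20) and Rpl39l (0.46, SE 0.38), with adjusted p of 0.343 to 0.486. Rps29, a zinc finger protein of the small subunit, was at 8502 in TIS sEV replicate 2 and at 4701 to 6895 elsewhere.

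**Figure D2:**
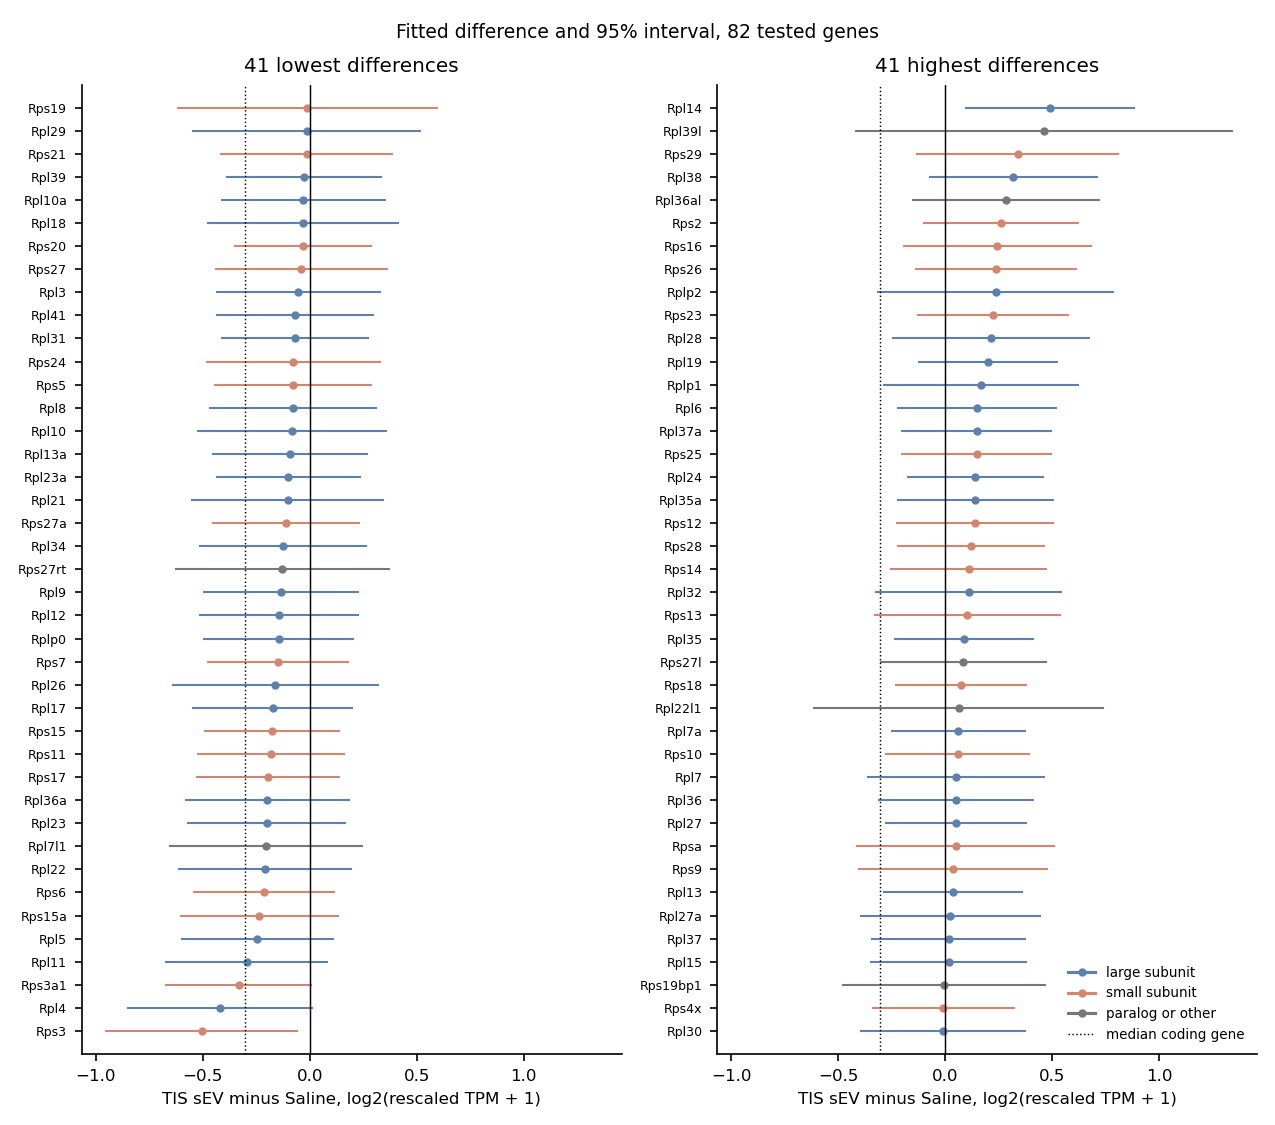
Fitted difference between TIS sEV and saline on the log2(rescaled TPM + 1) scale, with its 95% interval, for 82 of the 84 tested genes in order, coloured by subunit; the dotted line is the median tested coding gene at -0.30. Differences run from -0.50 (Rps3) to 0.49 (Rpl14).

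How narrowly the differences were bounded depended on the scaling. On the rescaled values the unadjusted 95% interval of the difference lay within 1.5-fold either way for 60 of 84 members (71.4%) and for 4.82% of all tested coding genes. It lay within 2-fold for 83 of 84, all but Rpl39l, and for 39.1% of all. The median SE of members was 0.161 against 0.302 for all tested coding genes, which include far lower levels. With size factors this order turned, at 0.29 for members against 0.254 for all. On that scale the interval lay within 1.5-fold for 2 members and within 2-fold for 48, and with deposited TPM for 0 and 1. Without the intensity trend 19 members lay within 1.5-fold and 81 within 2-fold. These counts under alternatives were added after seeing the data. The 1.5-fold count was 35, 37 and 39 without saline replicate 1, 2 or 3 and 38 without TIS sEV replicate 2.

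On the rescaled values the members lay on both sides of 0, with 39 above and 45 below and a median of -0.011. The median of all tested coding genes was -0.30, and 73.2% of them lay below 0. Of the 84 members, 81 lay above that median, and the members' median was 0.29 higher. This gap was 0.11 when TIS sEV replicate 2 was left out and 0.47 when replicate 1 was. It was 0.094 without a filter, 0.17 with deposited TPM and 0.0083 with quantile normalization. With size factors, which centre the median gene, the members' median turned to 0.30, and with deposited TPM it was -0.48, so its sign depends on the scale. Large subunit genes had a median of -0.029 (20 above 0, 26 below) and small subunit genes of -0.0080 (15 and 16).

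The difference of other coding genes from saline moved with transcript length. Among tested non-members the median TIS sEV difference was -0.050 for the 2193 genes under 1000 bases, -0.17 for 1000 to 2000, -0.40 for 2000 to 4000 and -0.54 for the 1840 genes of 4000 or more. The core members have a median transcript length of 712 bases and 63 of 77 were under 1000. With TIS sEV the members' median of -0.011 lay near that of other short transcripts. The part of length in the gap to the median gene was not tested. The same order of length classes held for Cont sEV against saline, with medians of -0.16 under 1000 bases and -0.71 at 4000 or more. There the members did not lie near the short genes, since their median was 0.17. Libraries of the TIS sEV group differed from each other in this respect, as given under the other observations.

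Saline and TIS sEV values did not overlap for 9 tested members. TIS sEV was lower in all 3 libraries for 6 (among them Rps3, Rps3a1, Rpl11, Rpl5 and Rps6; 7.14%, against 19.6% of all tested coding genes). It was higher for 3 (Rpl14, Rpl19 and Rps2; 3.57%, against 5.39%). Rps6, the small subunit protein phosphorylated by S6 kinases downstream of mTORC1, measured 3878, 3841 and 4149 with saline and 3561, 3611 and 3079 with TIS sEV (-0.21, SE 0.14, adjusted p = 0.407). The Rps2 difference of 0.26 was 0.061 (SE 0.155) once its pseudogene entries were added.

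Small differences were found for some further members with fixed places in the ribosome or in disease. The stalk base Rplp0 differed by -0.15 (SE 0.15), and its partners Rplp1 by 0.17 (SE 0.20) and Rplp2 by 0.24 (SE 0.24). Rpsa, which is also known as the laminin receptor, differed by 0.049 (SE 0.20) and Rps27a, made as a fusion with ubiquitin, by -0.11 (SE 0.15). Rps19, the gene most often mutated in the inherited red cell disorder Diamond-Blackfan anaemia, differed by -0.011 (SE 0.26). It ranged from 3395 to 5966 among saline libraries and from 3621 to 6022 among TIS sEV libraries. Of 9 genes mutated in that disorder, which include Rpl5 and Rpl11 given above, 3 were above 0 and 6 below, and 0 passed. Among all tested coding genes 73.2% were below 0.

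Between Cont sEV and saline 0 of 84 members and 0 of all tested coding genes (0.0%) passed in limma, with the lone Cont sEV library assumed to vary like the others. At an unadjusted p under 0.05 there were 11 members (13.1%), against 15.5% of all. Both shares were lower without saline replicate 2 and without saline replicate 3. Of the 11, 9 were higher (10.7% of members, against 1.65% of all) and 2 lower (2.38%, against 13.9%). The higher genes included Rpl7 (0.88, SE 0.25), Rpl35a (0.76, SE 0.22), Rps14, Rps12, Rplp2, Rps21, Rps23 and Rpl38, and the lower genes were Rpl10 (-0.82, SE 0.27) and Rpl4 (-0.69, SE 0.26), each with adjusted p of 0.301 or more. The members' median was 0.17 and that of all tested coding genes -0.45. Between TIS sEV and Cont sEV 0 members and 0 coding genes passed (0.0%, lowest adjusted p = 0.995), and 6 members had an unadjusted p under 0.05 (7.14%, against 3.91%). Of the 6, 1 was higher with TIS sEV (3.1% of all coding genes were) and 5 lower (0.804% of all). These 3 comparisons share libraries and are not independent.

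The make-up of the family varied mainly along 1 line, on which the TIS sEV libraries were spread widely. Each core gene was expressed as a share of the summed family in its library, on a log2 scale, and centred on its own mean. The first principal component of these shares held 59.7% of the variance, and the next ones 14.6% and 11.8%. The libraries' weights on it were 0.65 for Cont sEV and 0.49 for TIS sEV replicate 3. They were -0.12, -0.34 and -0.35 for saline replicates 1 to 3, -0.30 for TIS sEV replicate 1 and -0.020 for TIS sEV replicate 2. All saline weights were thus negative, and the TIS sEV weights overlapped them. On the second component the TIS sEV weights were 0.24, 0.59 and 0.29, all above the saline weights of -0.29, -0.53 and 0.079 and the Cont sEV weight of -0.38. Across the 77 genes, centred shares of Cont sEV and TIS sEV replicate 3 correlated at r = 0.640, while TIS sEV replicate 3 correlated with TIS sEV replicates 1 and 2 at -0.570 and 0.0522. These correlations are across genes that share libraries, and neither component was tested.

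**Figure D3:**
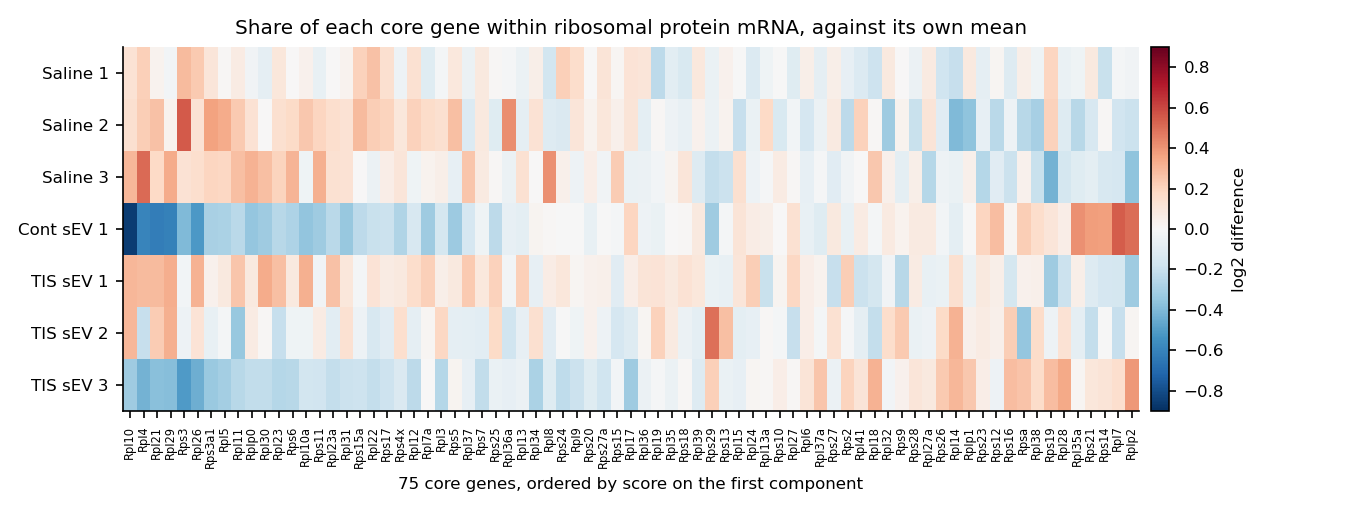
Share of each of 75 of the 77 core genes within summed ribosomal protein mRNA, as the log2 difference from the gene's own mean over 7 libraries (colour), by library (rows); genes are ordered by first component score. Cont sEV replicate 1 and TIS sEV replicate 3 are low for Rpl10 and Rpl4 at the left and high for Rpl7 and Rplp2 at the right.

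Rplp2 and Rpl7 lay toward one end. Rplp2 measured 8428, 6631 and 5827 with saline, 12996 with Cont sEV and 5968, 8328 and 10694 with TIS sEV. Rpl7 measured 3440, 2730 and 2727 with saline, 5429 with Cont sEV and 2704, 2881 and 3660 with TIS sEV. Both were highest with Cont sEV and next highest in TIS sEV replicate 3. Rps14, Rps21 and Rpl35a followed in this direction and were chosen, like the others here, after their values were seen.

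At the other end lay Rpl10, Rpl4, Rpl21, Rpl29, Rps3 and Rpl26. Rpl10, which joins the large subunit late in its assembly, measured 3576, 3197 and 3503 with saline, 1939 with Cont sEV and 3497, 3867 and 2489 with TIS sEV. Rpl21 measured 1264, 1313 and 1218 with saline, 859 with Cont sEV and 1301, 1385 and 905 with TIS sEV. Rpl26 measured 1115, 918 and 915 with saline, 708 with Cont sEV and 1018, 991 and 665 with TIS sEV. In all 3 genes the Cont sEV library and TIS sEV replicate 3 were the lowest of the 7 libraries.

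The scores were set beside features of the genes, as descriptions over 77 core genes. Spearman's rho with the score was 0.16 for GC content of the transcripts, -0.20 for transcript length, -0.095 for the number of named pseudogene entries and 0.49 for the mean level. Of 13 core genes with a C and 4 pyrimidines at the annotated start, 9 had a score above 0 (median 0.091), against 18 of 44 without (median -0.14). Single genes lay on both sides: Rps6 has such a start and a score of -0.50, and Rpl41 lacks one and has a score of 0.11.

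Other genes of the translation machinery were placed on the same scale. Rack1, a scaffold on the small subunit that is not named as a ribosomal protein, measured 4487, 3515 and 3286 with saline, 7495 with Cont sEV and 4016, 4239 and 6180 with TIS sEV. Eef1a1, the factor that brings aminoacyl-tRNA to the ribosome, measured 10723, 10379 and 10424 with saline, 4100 with Cont sEV and 8632, 8005 and 4586 with TIS sEV. Eef2, which moves the ribosome along the mRNA, measured 1496, 2149 and 1983 with saline, 649 with Cont sEV and 1413, 927 and 774 with TIS sEV. Cont sEV and TIS sEV replicate 3 were the highest 2 libraries for Rack1 and the lowest 2 for Eef1a1 and Eef2. For Eef1a1 and Eef2 every TIS sEV library also lay below every saline library, as it did for 19.6% of all tested coding genes. The nearest Eef2 values were 1413 and 1496.

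**Figure D4:**
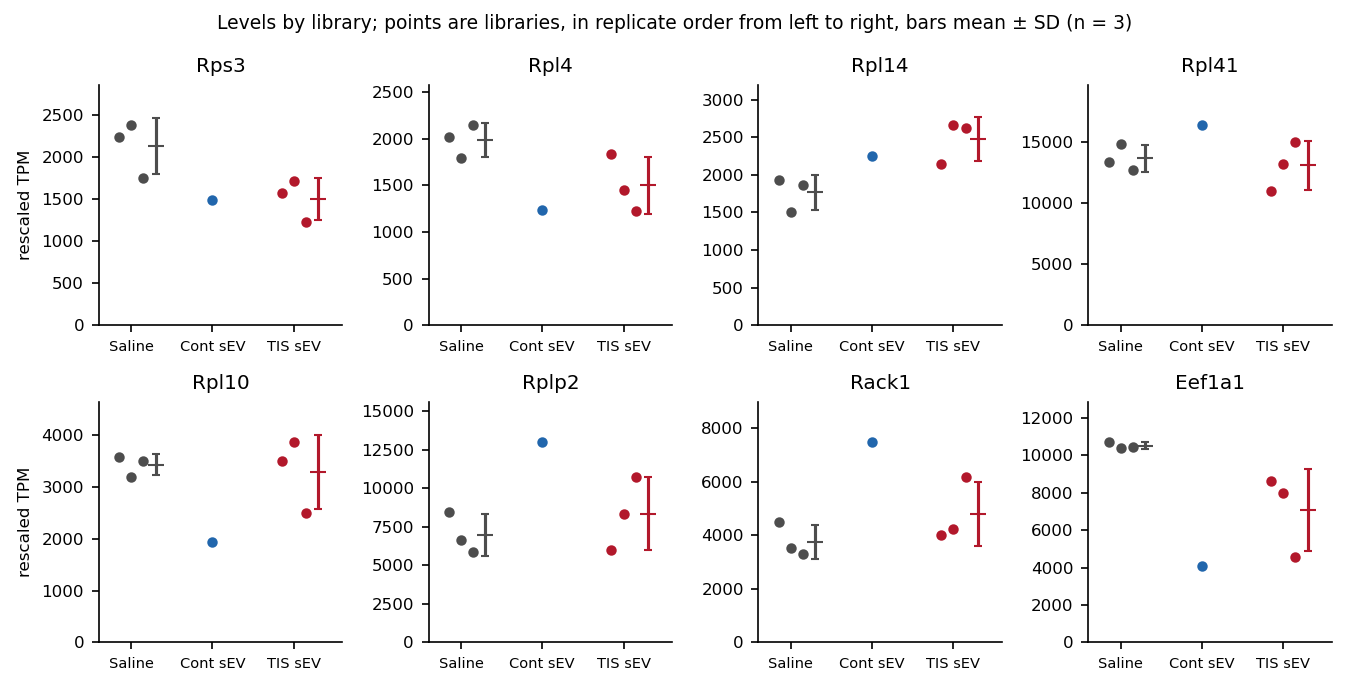
Rescaled TPM of 6 ribosomal protein genes, Rack1 and Eef1a1 in each library (points, replicates from left to right) with mean ± SD for saline and TIS sEV (n = 3). Saline and TIS sEV values do not overlap for Rps3, Rpl14 and Eef1a1, and Cont sEV and TIS sEV replicate 3 are the lowest libraries for Rpl10 and Eef1a1 and the highest for Rplp2 and Rack1.

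The TIS sEV differences were 0.34 (SE 0.21) for Rack1, -0.62 (SE 0.24) for Eef1a1 and -0.88 (SE 0.25) for Eef2, with limma adjusted p of 0.387, 0.317 and 0.317. Fau, which encodes a small subunit protein fused to a ubiquitin-like protein, differed by 0.093 (SE 0.17). Of 6 elongation factor genes 0 were above 0 and 0 passed, with a median of -0.32, near the -0.30 of all tested coding genes. The counts below stand beside 73.2% of all tested coding genes below 0. Of 28 initiation factor genes 6 were above 0 and 22 below (median -0.29) and 0 passed, and the cap-binding Eif4e was at -1.31 (SE 0.40, adjusted p = 0.317). Among 30 ribosome biogenesis genes, 9 were above 0 and 21 below (median -0.27), and 0 passed. There Ncl, the nucleolar protein nucleolin, was at 0.52 (SE 0.20), Fbl, the ribosomal RNA methyltransferase, at 0.058 (SE 0.17) and Npm1, a nucleolar chaperone, at -0.27 (SE 0.23).

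Of 19 TOP mRNAs outside the family, 4 were above 0 and 15 below (median -0.23), against the family's median of -0.011, and 0 passed. Among all tested coding genes 73.2% were below 0. Tpt1, a TOP mRNA that encodes a growth-associated protein, differed by -0.095 (SE 0.19). Of 12 genes of mTORC1 and TOP regulation, 1 was above 0 and 11 below (median -0.54), and 0 passed. Myc, a transcription factor that raises ribosome production, was at 77.4 to 137 in 6 libraries and at 32.9 in TIS sEV replicate 2 (-0.28, SE 0.45).

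Paralogs lay below their core partners and none of those tested passed. Rps27l, a paralog induced by p53, measured 439, 339 and 377 with saline, 415 with Cont sEV and 403, 417 and 398 with TIS sEV. It equalled 2.82% to 4.17% of Rps27 over the 7 libraries. Rps27rt, also paired with Rps27, equalled 1.12% to 1.81% of it, with a TIS sEV difference of -0.13 (SE 0.22, limma adjusted p = 0.733). Rpl22l1, a paralog of Rpl22, measured 630, 441 and 295 with saline, 516 with Cont sEV and 393, 578 and 411 with TIS sEV, or 13.3% to 25.2% of Rpl22. The saline libraries alone spanned the whole range of Rpl22l1.

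Rpl36al, a paralog of Rpl36a, measured 1126, 1012 and 882 with saline, 1509 with Cont sEV and 990, 1393 and 1316 with TIS sEV. It equalled 29.5%, 22.3% and 27.4% of Rpl36a with saline, 38.6% with Cont sEV and 30.2%, 42.8% and 38.0% with TIS sEV. The saline and TIS sEV ratios did not overlap, but the nearest were 29.5% and 30.2%, and Cont sEV lay inside the TIS sEV range. In the other tested pairs these ratios overlapped. The Rpl36al difference from saline was 0.28 (SE 0.19, limma adjusted p = 0.410), and that of Rpl36a -0.20 (SE 0.17). Rpl7l1 stood at 0.823% to 2.50% of Rpl7, with a difference of -0.20 (SE 0.19).

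Paralogs known from other tissues were near 0. Rpl39l, best known from the testis, measured 0.655 to 1.60 with saline, 1.41 with Cont sEV and 0.922 to 4.06 with TIS sEV. Rpl3l, found in heart and skeletal muscle, was under 0.35 in every library and listed at 0 in TIS sEV replicate 2. The testis-expressed retrogene Rpl10l was listed at 0 in all 7 libraries.

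**Figure D5:**
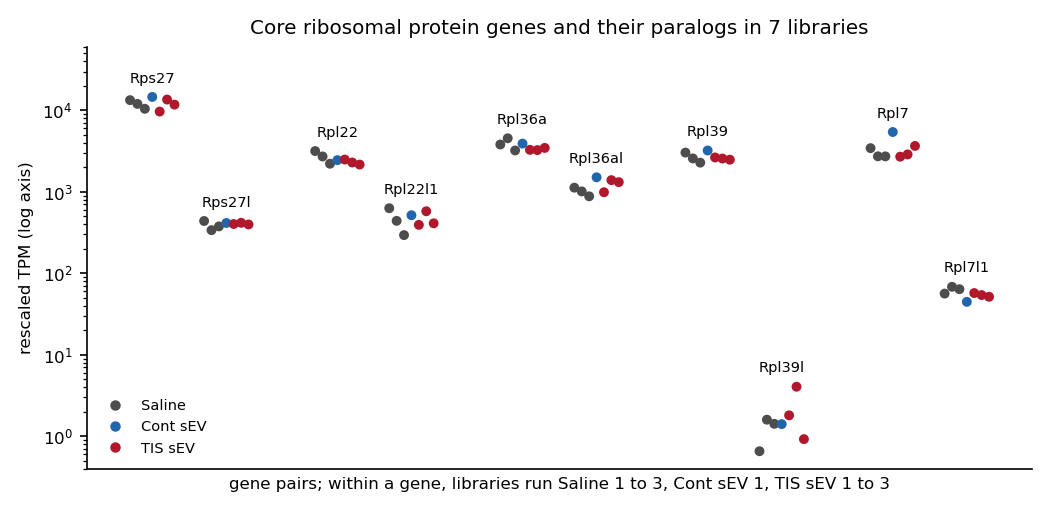
Rescaled TPM on a log axis of 5 core genes and their paralogs in the 7 libraries, coloured by group. Rpl36al lies closest to its partner and Rpl39l furthest below it.

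Sums of cell type markers differed between libraries, and their part in these results was not tested. All 9 epithelial tumour cell markers were measured, and their summed level was 3044 to 6222 with saline, 4153 with Cont sEV and 2056 to 4479 with TIS sEV. All 10 monocyte and macrophage markers were measured, summing to 1128 to 2800, 1658 and 946 to 2503 in the same order. Neutrophil markers (8 of 8) summed to 1599 to 10730, 674 and 2637 to 3407. The 9 T cell markers summed to 36.6 to 53.4, 30.7 and 46.5 to 109. The 8 B and plasma cell markers summed to 3.72 to 15.3, 53.2 and 45.4 to 517, while the B cell marker Ms4a1 was under 0.03 in every library. In bulk tumours, fewer cells of a type and less RNA per cell cannot be told apart.

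Sums of the other marker lists lay below that of the tumour cell markers in each library. Skeletal muscle markers (7) summed to 4.45 to 11.7 except in saline replicate 3, at 86.2. Keratinocyte markers (7) summed to 11.0 to 113, with Krt1 and Dsg1a listed at 0 throughout, and lymph node stroma markers (5) to 3.55 at most, with Cr2 at 0. Fibroblast (8), endothelial (6) and erythroid (5) markers summed to 53.4 to 197, 19.3 to 105 and 41.2 to 499 over the 7 libraries.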

How the data were processed

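RNA-seq of 7 tumour libraries was used as 1 table of TPM values that the authors deposited. Per the submitters' processing notes, FastQC 0.11.9, Trim Galore 0.6.6, Salmon 1.4.0, DESeq2 1.28.0 and build GRCm38.p6 were named, with no role or order. The sources used here do not name the annotation or say how transcripts were summed. All 7 columns were mapped. Gene types came from GENCODE M21 (GRCm38), in which 55227 of 55487 identifiers were found.

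TPM was rescaled to a nuclear protein-coding total of 1000000. Genes at 1 or more in at least 3 libraries were tested on log2(value + 1), which understates the change of low genes, with limma 3.58.1 in R 4.3.3. All groups were fitted together with the intensity trend, using two-sided moderated tests, the lone Cont sEV library being assumed to vary like the others, and Benjamini-Hochberg adjustment at 0.05 over 11444 genes. Intervals are unadjusted at 95%. The fit was tested on simulated data. Members and gene lists were chosen with earlier results of these data known, so no p is given for sums over members or adjusted over a list. Named were the 5 largest differences in each direction, the 5 highest levels and a fixed set; some members are not reported here. Alternatives covered scaling, pseudocount, filter, trend, pseudogene copies, a replicate block and each left-out library.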

Additional observations from a re-analysis of the deposited data

How the results depend on the processing

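No ribosomal protein gene passed in any of the 3 comparisons under any alternative run. The count of coding genes called for TIS sEV against saline was 0 and became 19 with deposited TPM, 1 without a filter and 3 with the replicate block, and 0 to 1 without 1 library. The gene called without TIS sEV replicate 2 was Chchd10. Chchd10, Ccl8 and Gm15056 were called with the block and Gm10226 without a filter. For Cont sEV against saline the counts were 5 with deposited TPM and 51 without a filter, and for TIS sEV against Cont sEV 2 and 48. The labels do not say whether replicate numbers pair the libraries. Deviations of same-numbered saline and TIS sEV libraries correlated at -0.295, -0.0178 and -0.0497, and those of differently numbered ones at -0.162 to 0.244. With 3 libraries a group these values cannot decide it. The block left the members' count at 0. The members' median against saline was -0.48 with deposited TPM, 0.30 with size factors and -0.035 to 0.050 without 1 library. For Cont sEV against saline it was 0.29 with deposited TPM, 0.69 with size factors, 0.28 when rescaled without the members, 0.052 with quantile normalization and 0.13 to 0.22 without 1 library. For TIS sEV against Cont sEV it was -0.71, -0.33 and -0.23 under the first 3 of these and -0.15 to -0.12 without 1 library. The summed share differed by 0.243 percentage points, by -5.05 as a share of deposited TPM and by -0.601 to 1.69 without 1 library.

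Signs were followed for 30 named members only. The median over all tested members moved from -0.011 to -0.48 with deposited TPM and to 0.30 with size factors, so unlisted members may have turned as well. Named members that turned sign never passed in either fit. With deposited TPM these were Rpl38 (-0.15), Rps29 (-0.13), Rplp1 (-0.30), Rps12 (-0.33), Rplp2 (-0.23), Rpsa (-0.42), Rps27l (-0.38), Rpl22l1 (-0.40), Rpl36al (-0.18) and Rpl7 (-0.42). With size factors they were Rpl11 (0.018), Rpl5 (0.067), Rpl41 (0.24), Rps27 (0.27), Rps15 (0.14), Rplp0 (0.17), Rps6 (0.098), Rps19 (0.30), Rps27a (0.20), Rpl10 (0.23), Rpl22 (0.10), Rpl3 (0.26), Rpl39 (0.28), Rpl36a (0.11) and Rpl7l1 (0.10), and with quantile normalization Rpl22l1 (-0.0039). Without 1 library the ranges that crossed 0 were Rpl41 -0.17 to 0.049, Rplp1 -0.0019 to 0.31, Rps27 -0.15 to 0.090, Rpsa -0.11 to 0.19, Rps19 -0.26 to 0.18, Rpl10 -0.21 to 0.10, Rps27l -0.0022 to 0.18, Rpl22l1 -0.21 to 0.33, Rpl3 -0.18 to 0.052, Rpl39 -0.12 to 0.080 and Rpl7 -0.079 to 0.16. Rps3, Rpl4, Rps3a1 and Rpl14 kept their sign under every alternative run, but some values came near 0: Rpl14 was at 0.020 (SE 0.51) with deposited TPM, and with size factors Rps3a1 was at -0.018 (SE 0.28), Rpl4 at -0.11 (SE 0.24) and Rps3 at -0.19 (SE 0.30). The depth of the libraries is unknown, which leaves the precision of low members such as Rpl39l unknown.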

Other observations

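The genes for mitochondrial ribosomal proteins, which build the separate ribosome that translates the mitochondrial genome, were all tested (78 of 78). Their summed rescaled TPM was 6316, 6698 and 6809 in the saline libraries, 7757 with Cont sEV and 7457, 7265 and 7507 in the TIS sEV libraries, so that no saline library reached a vesicle library. Of the 78 genes, 44 were above 0 and 34 below against saline with TIS sEV, with a median of 0.083 against -0.30 for all tested coding genes. None passed in limma. At an unadjusted p under 0.05 there were 6 higher and 2 lower genes of the 78, where 3.03% of all tested coding genes were higher and 12.6% lower. No p is given for the sum, which was looked at after the values were known. The sum and the median are given on the rescaled values only, and the part of transcript length in them was not tested.

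The deviation of long transcripts differed between libraries of 1 group. TIS sEV replicate 1 lay inside the saline range, and TIS sEV replicate 2 was the lowest of all. As the median log2 deviation from a gene's own mean, coding genes of 4000 bases or more lay at 0.17, 0.44 and 0.40 in the saline libraries, at -0.38 with Cont sEV and at 0.19, -0.61 and -0.17 in the TIS sEV libraries. The ribosomal protein genes lay at 0.094, -0.056 and -0.098, at 0.13 and at -0.046, 0.011 and -0.046 in the same order.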
